A study of Mus musculus with 52 samples.

Results

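The interaction of the STING agonist ADU-S100 and the agonistic anti-LTbR antibody was examined in bulk RNA-seq of subcutaneous KPC tumors (KxPxCx in the labels), in a 2 by 2 design. The 32 libraries that the labels assign to the 4 arms of experiment ST#23 were used, out of 52 libraries in the series, and each library was 1 tumor. Untreated tumors received neither agent. ADU-S100 tumors received 2 µg of ADU-S100, a synthetic cyclic dinucleotide, once into the tumor on day 0. Anti-LTbR tumors received 100 µg of the antibody 4 times, given intraperitoneally until day 10. Combination tumors received both, and every group held 8 tumors. All mice were male C57BL/6 mice of 8 to 10 weeks, and all tumors were resected on day 14, so the readout came 14 days after the only dose of ADU-S100. The tumors grew under the skin from cultured pancreatic cancer cells, and not in the pancreas. For every gene the interaction was the effect of ADU-S100 in antibody-treated tumors (combination minus anti-LTbR) minus its effect without the antibody (ADU-S100 minus untreated), on the log2 scale of normalized counts plus 1. A value of 0 means that the combination equalled the sum of both single-agent effects.

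STING is the adaptor that senses cyclic dinucleotides made when DNA appears in the cytosol, and it switches on type I interferon and inflammatory genes. LTbR is a receptor of the TNF receptor family on stromal and endothelial cells, which signals through noncanonical NF-kB and organizes lymphoid tissue, high endothelial venules and lymphoid chemokines. A positive interaction means that the combination lay above what both agents did alone, and a negative one that it lay below. The 4 group means show how this came about. With a positive interaction the combination can be the highest group (joint rise), or untreated can be the highest, with both agents alone below it and a combination that does not add their losses (rescue). With a negative interaction the combination can be the lowest group (joint fall), or untreated can be the lowest, with both agents alone above it and gains that do not add (ceiling).

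Recovered reads per library ran from 12762453 to 15591986, with group medians between 14831777.5 in untreated and 15222569 in anti-LTbR tumors. Genes of neighbouring tissue varied widely in every group. The summed level of 11 keratinocyte and skin markers was 2840.3 to 45039 (median 14785) normalized counts without treatment, 1432 to 41013 (median 5228) with ADU-S100, 2001 to 47136 (median 5813) with anti-LTbR and 1922 to 65092 (median 23289) with both agents. That of 14 skeletal muscle markers was 8898 to 181818 (median 13504) in untreated, 10936 to 333903 (median 122944) in ADU-S100-treated, 10269.8 to 238155 (median 162910) in antibody-treated and 10345 to 551080 (median 156871) in doubly treated tumors. The skin medians were therefore lower under each single agent and higher in untreated and combination tumors, and the muscle median was low in untreated tumors alone, while the ranges of all 4 groups overlapped. The libraries were also of 2 kinds that the labels do not name: 11 held 672 to 749 genes with a value between 0 and 1, and the other 21 held 2323 to 2559. Of the 11, 4 were untreated, 3 ADU-S100, 2 anti-LTbR and 2 combination tumors. With both levels as terms of the fit, 18 of the 133 called genes that are named below lost their call, and with the kind of library as a term 5 did (Gkn2, Trav14d-3-dv8, Irf3, Cdh1 and Ddx58). The 18 were Krtap8-1, Gkn2, Trav14d-3-dv8, Flt4, Il2ra, Cxcl2, Birc2, Kit, Fcer1a, Mcpt4, Irf3, Herc6, Bag3, Hsp90aa1, Rpl10, Sdc1, Timp3 and Nr1d1. Within the 21 libraries of one kind, 61 of the 133 were not called, and within the other 11, 92, where fewer tumors entered the fit. In bulk tumors, more cells of a type and more RNA per cell cannot be told apart.

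**Figure D1:**
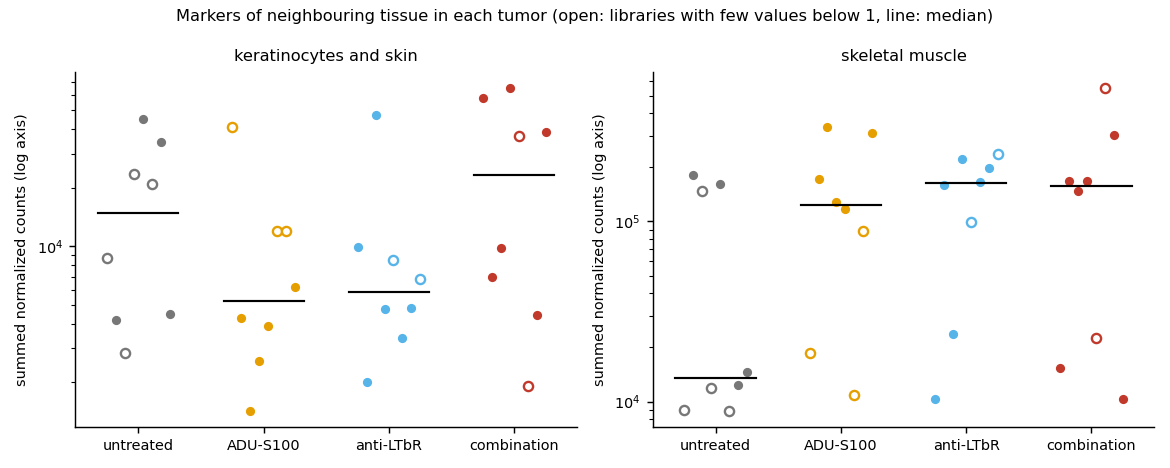
Summed normalized counts (log axis) of keratinocyte and skin markers (left) and skeletal muscle markers (right) in each of the 32 tumors by group, with the group median as a line. Open points are the 11 libraries with few values below 1, and the ranges of the 4 groups overlap in both panels.

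The genes of the targeted receptors showed no called interaction. Ltbr, the gene of the antibody's target, had 1121 to 1709.7 (median 1356) normalized counts in untreated tumors, 1132 to 1352 (median 1299) under ADU-S100, 1155 to 1357 (median 1218) under the antibody and 1138 to 1367 (median 1216) under both, with an interaction of 0.11 ± 0.08 (SE; adjusted p = 0.389). Sting1, which encodes STING, had 927 to 1344 (median 1017) without treatment, 910.3 to 1122 (median 1002) with ADU-S100, 1016 to 1341 (median 1171) with anti-LTbR and 1062 to 1427 (median 1254) with both agents, with an interaction of 0.12 ± 0.10 (adjusted p = 0.403). All 4 groups overlapped in both genes. Neither agent changes its target's gene by design, so these values do not check the labels.

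Among 17649 genes tested with limma at a false discovery rate of 0.05, 3240 (18.4%) had an interaction. It was positive in 1293 (7.33%) and negative in 1947 (11%), with a median of -0.01 over all genes tested. Positive interactions were larger, with a median of 0.80 against -0.36 for negative ones, and a size of at least 1 was reached by 478 positive (2.71%) and 62 negative (0.351%) genes. Expression level also differed between positive and negative genes, as given below by shape, and sizes were not compared at equal level. With another scaling in the same limma fit the split moved, to 1451 positive and 1638 negative with TMM and to 1042 and 2592 with each library centred on its median. Count tests on recovered reads, which change the tool and the genes tested as well, gave 1476 positive and 1399 negative genes with edgeR and RLE, 1313 and 1296 with edgeR and library totals, and 1693 and 1588 with DESeq2. Within the 21 libraries of one kind there were 796 positive and 732 negative genes, and within the other 11 there were 169 and 579.

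The effect of ADU-S100 depended on the antibody. Without it, 1 of 17649 genes was called against untreated (0.00567%), the pentraxin gene Ptx3, which was lower. At an unadjusted p under 0.05 there were 3163 genes, and DESeq2 on recovered reads called 315. In antibody-treated tumors ADU-S100 changed 4169 genes (23.6%), of which 1807 were higher (10.2%) and 2362 lower (13.4%) in the combination than in anti-LTbR tumors. The number of calls for ADU-S100 alone depended on single untreated tumors: without untreated 7, 349 genes were called, and without untreated 5, 100. The antibody changed 3366 genes without ADU-S100 (19.1%, with 8.62% higher and 10.5% lower) and 7910 with it (44.8%, with 20.1% higher and 24.7% lower), and 2001 without it when untreated 4 was left out. Between the combination and untreated 8438 genes differed (47.8%, with 21.5% higher and 26.3% lower). Only the interaction itself, and not these pairs of counts, tests whether an effect differed.

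**Figure D2:**
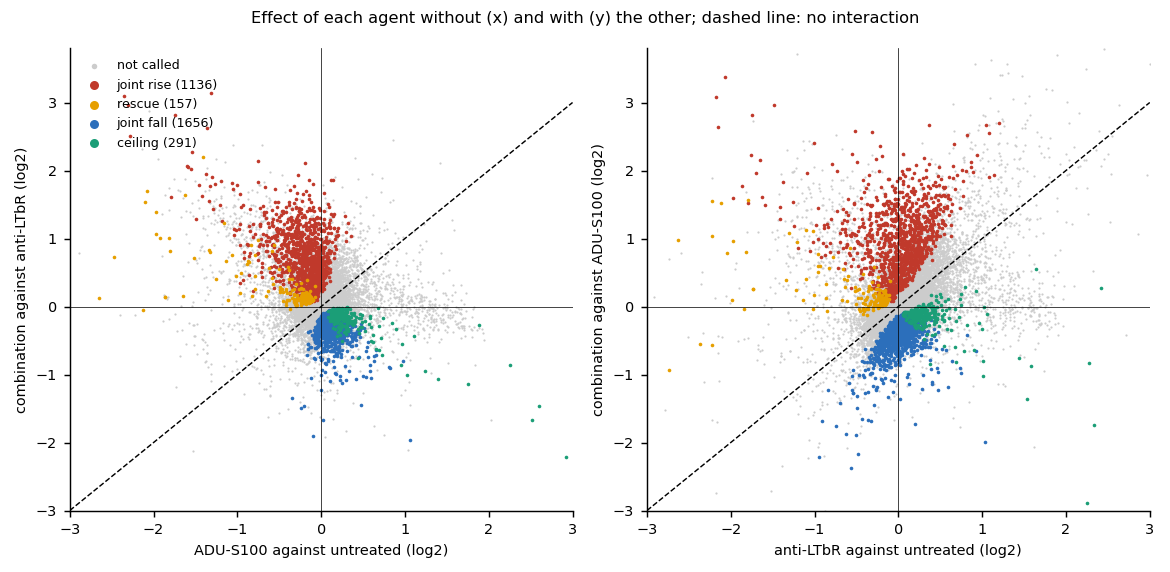
Each point is a gene: the effect of ADU-S100 without (x) and with (y) the antibody (left), and the effect of the antibody without and with ADU-S100 (right), as log2 differences. Genes on the dashed line have no interaction, the 3240 called genes are coloured by shape, and 25 genes lie beyond the axes of a panel.

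By the order of the 4 group means, 1136 of the 1293 positive genes (87.9%) were joint rises and 157 (12.1%) were rescues, while 1656 of the 1947 negative genes (85.1%) were joint falls and 291 (14.9%) were ceilings. In none was the mean that defines the class, the highest for positive and the lowest for negative genes, that of a single agent. The combination was called against all 3 other groups in 863 joint rises and 1037 joint falls, in 1 rescue and in no ceiling. In 130 joint rises and 106 joint falls, all 8 combination tumors lay beyond the other 24, against 149 (0.844%) above and 151 (0.856%) below among all genes tested. ADU-S100 alone lay below untreated in 994 joint rises, with a median of -0.16, and above untreated in 1518 joint falls, with a median of 0.11. Over all 17649 genes it lay below untreated in 9036 and above in 8613. The ADU-S100 effect enters the interaction with a minus sign, so genes with a called interaction favour the opposite sign of that effect by construction, and these counts support nothing about ADU-S100 alone, which passed the test in none of these genes. Untreated tumors enter the interaction and both single-agent effects with opposite signs, so chance highs or lows of that group likewise favour rescues and ceilings. These 2 classes moved most with single libraries, from 97 rescues and 189 ceilings without untreated 4 to 247 and 438 without untreated 7.

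**Figure D3:**
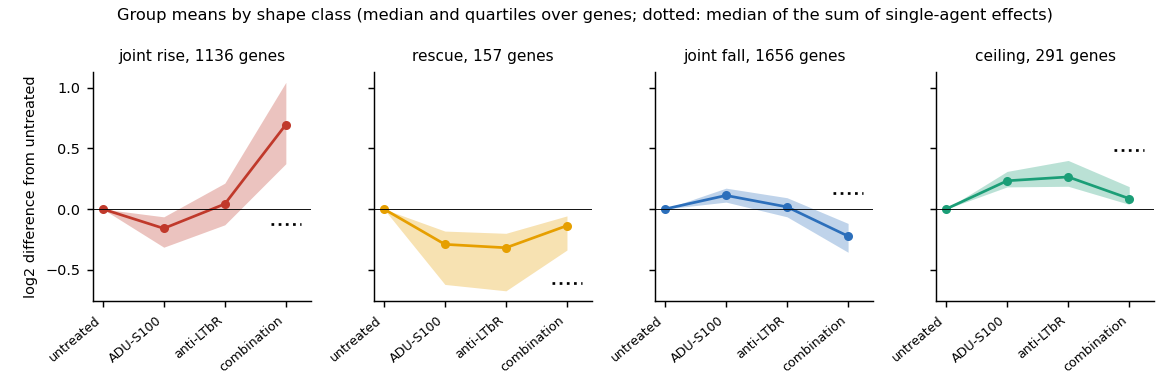
Log2 difference of each group mean from untreated for the called genes of each shape, as the median (points) and quartiles (band) over genes. Dotted lines give the median of the sum of both single-agent effects, which lies below the combination in joint rises and rescues and above it in joint falls and ceilings.

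**Figure D4:**
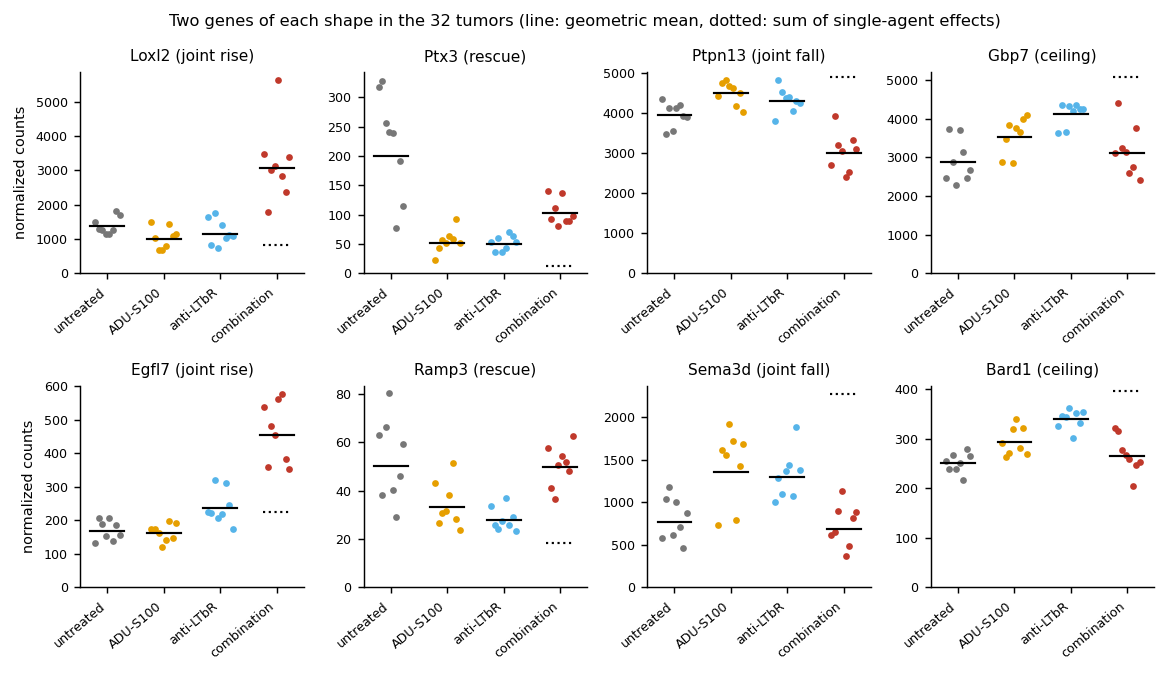
Normalized counts of 8 genes in the 32 tumors by group, 2 genes of each shape, with the geometric mean as a line and the level given by the sum of the single-agent effects as a dotted line. In Loxl2 and Egfl7 the mean of the combination lies above that level and above the other means, in Ptx3 and Ramp3 above it and within the untreated range, in Ptpn13 and Sema3d below it, and in Gbp7 and Bard1 below it and near untreated.

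The joint rises with the smallest p-values were genes of varied function. Ccdc80, a secreted matrix protein (mm39, chromosome 16:44913765-44948440), had 909.8 to 1871 (median 1342) normalized counts in untreated, 782 to 1226 (median 934) in ADU-S100-treated, 782 to 1402 (median 1212) in antibody-treated and 1584 to 4099 (median 2522) in doubly treated tumors. Both single-agent medians lay below untreated, 7 of 8 combination tumors exceeded the other 24, and the interaction was 1.65 ± 0.21 (adjusted p = 9.15e-05). Mtap, which salvages methionine from a by-product of polyamine synthesis, had 97.6 to 131 (median 106) in untreated tumors, 76.6 to 121 (median 97.4) under ADU-S100, 94.5 to 134 (median 111) under the antibody and 175 to 279 (median 201) under both. No combination tumor overlapped another group, and the interaction was 1.05 ± 0.15 (adjusted p = 0.000133). Ripk3, a kinase of necroptosis, also had all 8 combination tumors above the rest, at 246 to 418 (median 285) against 156 to 205 (median 185) in untreated, 121 to 197 (median 156) in ADU-S100 and 167 to 217 (median 179) in anti-LTbR tumors. Its interaction was 0.93 ± 0.14 (adjusted p = 0.000217).

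Tgfb1i1, also called Hic-5, a focal adhesion protein induced by TGF-beta, averaged 249 ± 43.6 normalized counts without treatment, 188 ± 48.9 with ADU-S100, 203 ± 56.9 with anti-LTbR and 532 ± 150.4 with both agents (mean ± SD), with an interaction of 1.81 ± 0.26. Bace2, an aspartyl protease, averaged 60.6, 45.9, 65.5 and 116 in the same order of groups (interaction 1.23), and Trp53i11 averaged 265, 203, 248 and 401 (interaction 1.09). In both, all 8 combination tumors were above the other 24. Enpp3, an ectoenzyme that splits extracellular nucleotides, averaged 47.9, 22.5, 27.8 and 62.2 (interaction 2.14), and C1qtnf5 386, 282, 259.9 and 493 (interaction 1.38). The antibody alone lowered both (adjusted p = 0.0112 and 0.00649), and the combination did not differ from untreated past the threshold in either (adjusted p = 0.105 and 0.0526). The ribosomal protein gene Rps3a1 (2607, 2274, 2569 and 3906, interaction 0.79) completes these 9 joint rises, and reads of its near-identical copies may be shared with it.

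Most matrix genes, 20 of 28, were higher in the combination than in untreated tumors (against 21.5% of all genes), and 3 were lower (against 26.3%). Of the 28 collagen and matrix genes tested, 17 had a positive (60.7%, against 7.33% of all genes) and 2 a negative interaction (7.14%, against 11%), with a list median of 0.72 against -0.01 over all genes. The 2 negative genes were Fn1, fibronectin (-0.83), and Timp3, a protease inhibitor (-0.53). Loxl2, a lysyl oxidase that cross-links collagen (chromosome 14:69846517-69933283), had 1158 to 1830.5 (median 1283) normalized counts in untreated, 675 to 1493 (median 1064) in ADU-S100-treated, 730 to 1763 (median 1111) in antibody-treated and 1801 to 5624 (median 3066) in doubly treated tumors. The sum of the single-agent effects put the combination at 835 normalized counts, and its geometric mean was 3059, an interaction of 1.87 ± 0.28 (adjusted p = 0.000258), and 7 of 8 combination tumors exceeded the rest. Sparc, a collagen-binding matricellular protein, had 17566 to 23770.1 (median 19543) in untreated tumors, 15045 to 25939 (median 18328) under ADU-S100, 17156 to 26418 (median 21775) under the antibody and 28256 to 80718 (median 49331) under both. All 8 combination tumors exceeded the other 24, with an interaction of 1.23 ± 0.20 (adjusted p = 0.000361). Thbs2, a matricellular inhibitor of vessel growth, and Mmp2, a gelatinase, had interactions of 1.41 ± 0.23 and 1.63 ± 0.27. Thbs2 averaged 4214 ± 871 without treatment, 3375 ± 634 with ADU-S100, 3274 ± 1099 with anti-LTbR and 6809.7 ± 1381 with both agents. Mmp2 averaged 3729 ± 727, 2986 ± 984, 2972 ± 732 and 7248 ± 2326, and in both genes 7 of 8 combination tumors were above the rest.

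Of 12 fibroblast markers 8 were positive (66.7%, against 7.33% of all genes) and none negative, with a median of 1.16, and 10 were higher (of all genes 21.5%) and 1 lower in the combination than in untreated tumors. Postn, the matrix protein periostin, had 8348 to 13008 (median 10160.3) normalized counts in untreated, 5903 to 13618 (median 9298) in ADU-S100-treated, 6838 to 12575 (median 9566) in antibody-treated and 12465 to 38628 (median 24607) in doubly treated tumors, and an interaction of 1.56 ± 0.26 (adjusted p = 0.00039). Its combination tumors varied widely, and 7 of 8 lay above the other 24. Pdgfra, the receptor that defines many fibroblasts, averaged 749 ± 167 in untreated tumors, 527 ± 221 under ADU-S100, 693 ± 158 under the antibody and 1419 ± 391 under both (interaction 1.61 ± 0.29). The microfibril gene Mfap5 had an interaction of 1.37 ± 0.27, and the proteoglycan gene Dcn 1.62 ± 0.33. Cd34, Gsn, Pi16 and Has1 had no called interaction.

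Skin holds matrix and fibroblasts, and skin marker levels differed between tumors as given above. The skin term below is built from keratinocyte markers, and a contribution of skin to the matrix and fibroblast values was not tested. With skin and muscle levels as terms, 16 matrix genes were positive and 2 negative (median 0.69), and 8 of 12 fibroblast markers were positive (median 1.06). Within the 21 libraries of one kind the medians were 0.75 for matrix and 1.25 for fibroblast genes, and within the other 11 they were 0.91 and 1.15.

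Of contractile and mural genes, 6 of 12 were positive (against 7.33% of all genes) and none negative (median 0.71). Tagln, an actin-binding protein of smooth muscle and myofibroblasts, had 430.4 to 1395 (median 940.5) normalized counts without treatment, 457 to 796 (median 573) with ADU-S100, 353 to 844 (median 412) with anti-LTbR and 700.2 to 1441 (median 1139.6) with both agents. The antibody alone lowered it (-0.86 on the log2 scale, adjusted p = 0.00418), while the combination overlapped untreated, and the interaction was 1.76 ± 0.28 (adjusted p = 0.000352). Acta2, smooth muscle actin, averaged 1679 ± 325 in untreated, 1522 ± 342 in ADU-S100-treated, 1536 ± 375 in antibody-treated and 3011 ± 716 in doubly treated tumors, an interaction of 1.12 ± 0.23. The pericyte genes Cspg4 and Rgs5 had interactions of 1.15 ± 0.24 and 0.71 ± 0.20. Notch3, Cnn1, Myh11, Higd1b, Abcc9 and Des, the last of which skeletal muscle also expresses, were not called.

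Of 20 blood endothelial markers 16 were positive (80%, against 7.33% of all genes) and none negative, with a median of 0.70. Pecam1, the junction protein CD31, had 554 to 817 (median 590.3) normalized counts in untreated tumors, 372 to 654 (median 567) under ADU-S100, 582 to 795 (median 670.3) under the antibody and 867 to 1229 (median 1000) under both, with no overlap between the combination and the rest. Its interaction was 0.74 ± 0.13 (adjusted p = 0.000619). Egfl7, a secreted endothelial protein, had 133 to 207 (median 171) without treatment, 119.8 to 197 (median 167) with ADU-S100, 175 to 321 (median 222) with anti-LTbR and 354 to 579 (median 469.7) with both agents. Here the antibody alone raised the gene (0.48, adjusted p = 0.0119), ADU-S100 alone did not pass the test (-0.06), and the combination rose by 1.43 over untreated, an interaction of 1.01 ± 0.19. Tie1, an endothelial receptor kinase, averaged 161 ± 24.7, 148 ± 33.7, 212 ± 40.5 and 389.7 ± 68.2 in the order untreated, ADU-S100, anti-LTbR and combination, an interaction of 1.02 ± 0.19. Plvap, which forms the diaphragms of fenestrated vessels, averaged 344 ± 50.9, 302 ± 71.5, 415 ± 64 and 654 ± 103 (interaction 0.86 ± 0.17). All 8 combination tumors were above the other 24 in both genes, as in 0.844% of all genes. Vwf, Ptprb, Tek and Ushbp1 were not called. With skin and muscle levels as terms, 15 of 20 endothelial markers were positive, and the medians within the 2 kinds of library were 0.72 and 1.05.

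Among 7 lymphatic endothelial markers, 4 were positive (57.1%, against 7.33% of all genes) and none negative (median 0.89). Prox1, the transcription factor that specifies lymphatic endothelium, had 24.3 to 68 (median 36.5) normalized counts in untreated, 33.1 to 57.2 (median 47.7) in ADU-S100-treated, 64.3 to 113 (median 84.1) in antibody-treated and 132 to 246 (median 175) in doubly treated tumors. The antibody alone raised it by 1.14 (adjusted p = 0.000224) and the combination by 2.23, an interaction of 0.80 ± 0.26 (adjusted p = 0.0306), and all 8 combination tumors lay above the rest. Flt4, the receptor of the lymphatic growth factor VEGF-C, had the same order, with 127, 139, 272 and 526 on average and an interaction of 0.82 ± 0.29 (adjusted p = 0.0423). Its call was lost with skin and muscle levels as terms, at an interaction of 0.77. Lyve1, a hyaluronan receptor, and Pdpn, podoplanin, which fibroblasts also carry, had interactions of 1.44 ± 0.38 and 1.07 ± 0.18.

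High endothelial venule markers were split. Of 7 tested, 2 were positive (28.6%, against 7.33% of all genes) and 1 negative (14.3%, against 11%), and the median was 0.02, near that of all genes. Ackr1 (0.99) and Icam1 (0.60), adhesion and chemokine-binding molecules of inflamed vessels, were positive and Gcnt1 (-0.47) negative. Chst4, Glycam1 and Madcam1, 3 defining genes of these venules, failed the filter on low values.

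Of 23 genes of angiogenic signaling 4 were positive and 4 negative (17.4% each, against 7.33% and 11% of all genes, median 0.01). Angpt2, a destabilizing ligand of the endothelial receptor Tek, had 195 to 333 (median 208) normalized counts in the combination, above 93.5 to 174 (median 111) in untreated, 66.9 to 147 (median 98.8) in ADU-S100 and 85.9 to 186 (median 123) in anti-LTbR tumors in all 8 tumors (interaction 1.12 ± 0.23). S1pr1, a sphingolipid receptor that stabilizes vessels, had an interaction of 0.80 ± 0.17. In the opposite direction, Flt1, a VEGF receptor, averaged 6863 ± 1672 in untreated tumors, 8370.3 ± 1307 under ADU-S100, 7828 ± 938 under the antibody and 5902 ± 878 under both (interaction -0.72 ± 0.18), and Notch1 had an interaction of -0.62 ± 0.15. The direction of Flt1 was opposite to that of the called endothelial markers, and its interaction was -0.38 within the 21 libraries and -1.34 within the 11.

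Of 15 T cell markers 4 were positive (26.7%, against 7.33% of all genes) and none negative (median 0.22). All 15 were higher in the combination than in untreated tumors, against 21.5% of all genes. Cd4 had 60.2 to 159 (median 104) normalized counts without treatment, 68.7 to 114 (median 88.4) with ADU-S100, 106 to 212 (median 126) with anti-LTbR and 153 to 263 (median 233) with both agents. Among these, 7 of 8 combination tumors exceeded the rest, and the interaction was 0.88 ± 0.23 (adjusted p = 0.00722). Trbc2, Cd5 and Cd2 had interactions of 0.65 ± 0.21, 0.77 ± 0.24 and 0.65 ± 0.21. Centred within bins of transcript length, 2 of the 15 were called, without Trbc2 and Cd2. Within the 2 kinds of library no T cell marker was called (limma), and the medians were -0.07 in the 21 and 0.81 in the 11. Regulatory T cell genes held 3 positive and 1 negative of 6 (66.7% called, against 18.4% of all genes). Foxp3, their defining transcription factor, averaged 45.5 ± 11.5, 33.1 ± 9.3, 45.8 ± 10.4 and 66 ± 16 in the order untreated, ADU-S100, anti-LTbR and combination (interaction 0.97 ± 0.25). Il2ra, the receptor CD25, and Lrrc32, which anchors latent TGF-beta on these and other cells, had interactions of 0.75 ± 0.23 and 1.33 ± 0.23. Il10 went the other way, at 15 to 25.8 (median 17.9) in the combination against 20.7 to 55 (median 35.3) in untreated tumors (interaction -0.89 ± 0.29, adjusted p = 0.0312). Of 12 checkpoint and exhaustion genes, Ctla4, an inhibitory receptor of T cells, was positive (0.68 ± 0.20) and Nt5e, the ectoenzyme CD73 that makes adenosine, negative (-0.85 ± 0.18), 8.33% each against 7.33% and 11% of all genes.

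No B cell marker had a called interaction among 9 tested with limma (1 at an unadjusted p under 0.05, and 0 with edgeR and with DESeq2), with a list median of 0.17. Yet 6 of the 9 were higher in the combination than untreated (against 21.5% of all genes), and 3 under the antibody alone (against 8.62%). The medians within the 2 kinds of library were -0.10 and 0.72. Plasma cell markers held 0 positive and 1 negative of 9 (11.1%, against 11% of all genes). That gene was Sdc1, which epithelial tumor cells express. In the combination 8 of the 9 markers were higher than in untreated tumors (against 21.5% of all genes) and 1 was lower (against 26.3%). Of 16 macrophage and monocyte genes 2 were positive (Mrc1 at 0.52 among them, and 12.5% against 7.33% of all genes), of 11 NK and cytotoxic genes 1 (Klrb1c at 0.84, 9.09%), and of 11 dendritic cell genes 2 (Ccl22 and Batf3, at 1.01 and 0.95, 18.2%). Positive genes numbered 6 of the 16 macrophage and 3 of the 11 NK genes with skin and muscle levels as terms, against 1410 of all 17649 genes. In that fit plasma cell markers held 1 positive and 0 negative. Within the 2 kinds of library the macrophage medians were 0.01 and 0.75, and those of plasma cell markers 0.18 and 0.79.

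Lymphoid chemokines and their receptors had 4 positive (26.7%, against 7.33% of all genes) and 1 negative (6.67%, against 11%) of 15, with a median of 0.73. Cxcl12, a stromal chemokine that holds lymphocytes, had 1059.5 to 1824 (median 1530.3) normalized counts in untreated, 924 to 2181 (median 1110.1) in ADU-S100-treated, 961 to 2377 (median 1651) in antibody-treated and 1975 to 4473 (median 2925) in doubly treated tumors, an interaction of 1.23 ± 0.27 (adjusted p = 0.00249). The antibody alone lay close to untreated, and 6 of 8 combination tumors exceeded the rest. Ccr7, the receptor that guides cells to lymphoid zones, had an interaction of 0.99 ± 0.22, Ccl22 1.01 ± 0.26 and Cxcr3, the receptor of interferon-induced chemokines, 1.02 ± 0.25. For Ccr7 and Ccl22 the combination did not differ from untreated past the threshold (adjusted p = 0.0781 and 0.627). Cx3cl1, the chemokine fractalkine, was negative (-0.58), and Ccr6 failed the filter.

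Of 11 genes that encode LTbR and TNF ligands, 2 were positive (18.2%, against 7.33% of all genes). With skin and muscle levels as terms 4 were positive, within length bins 1, without Tnf, and within either kind of library 0 by limma. Tnfsf14, the LTbR ligand LIGHT, averaged 45.1 ± 13.1, 35.9 ± 5.32, 38.1 ± 7.2 and 54.3 ± 7.84 in the order untreated, ADU-S100, anti-LTbR and combination (interaction 0.80 ± 0.20, adjusted p = 0.00676). Tnf had 48.1 to 108 (median 77.7) in untreated tumors, 47.1 to 113 (median 71.6) under ADU-S100, 69.8 to 147 (median 101) under the antibody and 106 to 349.9 (median 195) under both, and an interaction of 1.00 ± 0.31 (adjusted p = 0.0262), with 6 of 8 combination tumors above the rest. In the noncanonical NF-kB pathway that LTbR engages, the ubiquitin ligase genes Birc3 and Birc2 were positive, at 0.44 ± 0.13 and 0.22 ± 0.07, and the other 9 genes were not called, a share of 18.2% positive.

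Ptx3, an acute-phase pentraxin of innate immunity (chromosome 3:66127331-66133226), had the smallest interaction p-value of all genes and was a rescue. It had 77.8 to 328 (median 241) normalized counts without treatment, 23.2 to 93.4 (median 54.2) with ADU-S100, 36.1 to 70.2 (median 53.2) with anti-LTbR and 81.1 to 140.5 (median 94.7) with both agents. Each agent alone lowered it, by -1.93 (adjusted p = 0.000162) and -1.97 (adjusted p = 2.52e-05), while the median of the combination lay between those of the single agents and untreated. The sum of both effects put the combination at 12.6 normalized counts against a geometric mean of 103, an interaction of 2.94 ± 0.35 (adjusted p = 3.24e-05). Within the 2 kinds of library it was 2.87 and 3.14, and ADU-S100 had opposite called effects on this gene alone, lower without and higher with the antibody.

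The other leading rescues were smaller. Ramp3, a partner of the adrenomedullin receptor, had 28.9 to 80.3 (median 52.7) normalized counts in untreated, 23.8 to 51.6 (median 31.2) in ADU-S100-treated, 23.4 to 37 (median 26.6) in antibody-treated and 36.4 to 62.5 (median 51.3) in doubly treated tumors (interaction 1.40 ± 0.25, adjusted p = 0.000521). The combination lay within the untreated range, and both single agents had lower medians with overlap. Adm, adrenomedullin itself, was also a rescue, averaging 108 ± 30.7, 75.3 ± 20.9, 66.5 ± 10.1 and 103 ± 36.7 in the order untreated, ADU-S100, anti-LTbR and combination (interaction 1.06 ± 0.29). Glrx5, a mitochondrial iron-sulfur protein, had an interaction of 0.53 ± 0.11. Among 10 neutrophil chemokine and cytokine genes tested, 3 were positive (against 7.33% of all genes, median 0.79). Cxcl3 and Cxcl2, ligands that attract neutrophils, were rescues with interactions of 2.13 ± 0.47 and 1.51 ± 0.51. The call of Cxcl2 was lost with skin and muscle levels as terms (1.09, adjusted p = 0.0915) and with libraries centred within length bins (adjusted p = 0.0551). The platelet chemokine gene Pf4 was a joint rise (1.08 ± 0.27), and Csf3 and Il17a failed the filter.

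Mast cell genes had a lower list median than untreated in every treated group. Of 11 tested, 4 were positive (36.4%, against 7.33% of all genes) and none negative (median 1.21), and the list median relative to untreated was -1.10 under ADU-S100, -2.23 under the antibody and -1.78 under both. Of the 11 genes, 10 were lower under the antibody alone (against 10.5% of all genes). In the combination 8 were lower (against 26.3%) and 1 was higher (against 21.5%), and ADU-S100 alone called none. Mcpt4, a connective tissue mast cell chymase, had 138 to 376 (median 187) normalized counts in untreated tumors, 29 to 429 (median 85.4) under ADU-S100, 25.8 to 76.4 (median 43.1) under the antibody and 30.8 to 139 (median 48) under both. The medians of the combination and of the antibody alone were close, and the interaction was 1.66 ± 0.54 (adjusted p = 0.032). Hdc, which makes histamine, and Fcer1a, a chain of the IgE receptor, were rescues with 1.55 ± 0.45 and 1.82 ± 0.59, while Kit, a receptor that other cells also carry, was a joint rise (0.49 ± 0.15). With skin and muscle levels as terms 1 of the 11 genes was called, with a median of 0.70, and the medians within the 2 kinds of library were 1.69 and 0.11.

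The 4 largest called positive interactions, among genes that reach a mean of 50 in a group, were those of Krt6b, Stfa1, Krtap8-1 and Gsdmc, genes of skin and hair. Krt6b, a keratin of the hair follicle and of wounded epidermis, had 22.9 to 4809 (median 1814) normalized counts without treatment, 41.4 to 3609.8 (median 115) with ADU-S100, 89.2 to 347 (median 193) with anti-LTbR and 111 to 11649 (median 3594) with both agents, an interaction of 5.46 ± 1.51 (adjusted p = 0.012). Stfa1, an epidermal protease inhibitor of a multigene family, Gsdmc, a gasdermin, and Krtap8-1, a hair keratin-associated protein, had fitted values of 5.26, 4.78 and 4.92, which depend on the pseudocount because some tumors were at 0. In Krt6b the ranges of all 4 groups overlapped. Krtap8-1 was high in single tumors, untreated 6 at 867 (others of the group 0 to 139) and combination 8 at 250.5 (others 0 to 11). Of 11 keratinocyte markers 1, Krt14, was called (2.70 ± 0.94), their median was 1.77, and within the 2 kinds of library it was 3.11 and -1.08, so its sign turned. The skin term of the fit is the mean log2 level of these same 11 markers, and the muscle term that of the 14 skeletal muscle genes, so with both as terms a value for a member is relative to its own list and the list median goes to about 0 by construction (-0.09 for skin and 0.01 for muscle). In the same fit Krt6b had an interaction of 3.64, Stfa1 of 3.24, Gsdmc of 2.69 and Krt14, which is one of the 11, of 1.46, all smaller and still called, while Krtap8-1 lost its call at 3.73 (adjusted p = 0.0541). Of 14 skeletal muscle genes none was called by limma (0 at an unadjusted p under 0.05, 0 with edgeR and 0 with DESeq2), with a median of -1.68. Ttn, the giant sarcomere protein, had the smallest p of them, with -2.12 ± 1.33 (adjusted p = 0.276). In the fit with both terms, where its value is relative to its own list, it had -0.40 (adjusted p = 0.0257).

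Joint falls were many and small, and their median level was higher than that of joint rises (1121.9 against 154.4 normalized counts). Ptpn13, a large protein tyrosine phosphatase (chromosome 5:103573058-103746169), had 3480.3 to 4352 (median 4025) normalized counts in untreated, 4035 to 4817 (median 4566) in ADU-S100-treated, 3808 to 4819 (median 4341) in antibody-treated and 2398 to 3928 (median 3080.4) in doubly treated tumors, and 7 of 8 combination tumors lay below the rest. Its interaction was -0.71 ± 0.10 (adjusted p = 0.00015). Fbxw11, a substrate receptor of the ubiquitin ligase that degrades IkB and beta-catenin, had 1677 to 2048 (median 1827) in the combination, below all 24 other tumors (2098 to 2343 (median 2266) in untreated, 2211 to 2609 (median 2412) in ADU-S100 and 2099.7 to 2337 (median 2197) in anti-LTbR). Its interaction was -0.36 ± 0.05 (adjusted p = 0.000258).

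Other leading joint falls were Lrrk2, a kinase known from Parkinson disease (-0.72 ± 0.11), Gtf2i, a transcription factor (-0.40 ± 0.06), Miga1, which acts in mitochondrial fusion (-0.59 ± 0.09), Mapk1ip1l (-0.35 ± 0.05), Adnp2 (-0.39 ± 0.06), Pafah1b2 (-0.32 ± 0.05) and Plekha2 (-0.35 ± 0.06). In all 7 the ADU-S100 mean was the highest of the groups and the combination mean the lowest. Between 6 and 8 combination tumors lay below the other 24 in each. Padi4, the enzyme that citrullinates histones, averaged 1494 ± 124, 1800.3 ± 145, 1622 ± 194 and 1209 ± 202 in the order untreated, ADU-S100, anti-LTbR and combination (interaction -0.70 ± 0.12). It was the only negative gene among 12 neutrophil markers, while Mmp9, a gelatinase that many cells share, was positive (1.89 ± 0.50), 8.33% each against 7.33% and 11% of all genes.

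Guidance molecules split into 6 positive (23.1%, against 7.33% of all genes) and 8 negative (30.8%, against 11%) of 26 (median -0.20). With libraries centred within length bins 6 were positive and 7 negative, and the median was 0.02. Sema3d, a secreted semaphorin, was among the 4 largest called negative interactions of genes that reach a mean of 50 in a group, with 463 to 1179 (median 788) normalized counts without treatment, 729 to 1912 (median 1579) with ADU-S100, 1001 to 1879 (median 1329) with anti-LTbR and 370.3 to 1125 (median 732) with both agents. Both single agents had higher medians than untreated, the combination overlapped untreated, and the interaction was -1.72 ± 0.31 (adjusted p = 0.000682). Slit2 and Slit3, related ligands of Robo receptors, went in opposite directions. Slit2 averaged 1338 ± 244 in untreated, 1485 ± 131 in ADU-S100-treated, 911 ± 119 in antibody-treated and 622 ± 117 in doubly treated tumors (interaction -0.73 ± 0.15). Slit3 averaged 855 ± 197, 694 ± 226, 693 ± 221 and 1318 ± 285 (interaction 1.29 ± 0.27). Ephb2, an ephrin receptor, was a joint rise (1.41 ± 0.30).

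TGF-beta and mesenchymal genes held 4 positive (against 7.33% of all genes) and 5 negative (25%, against 11%) of 20 (median 0.01). The ligand gene Tgfb1 averaged 5957 ± 388 normalized counts in untreated tumors, 6212 ± 405 under ADU-S100, 5556 ± 320.5 under the antibody and 4471 ± 477 under both, an interaction of -0.38 ± 0.08. Prrx1, a transcription factor of mesenchymal cells, averaged 941 ± 124, 883 ± 117, 1013 ± 111 and 1649 ± 333 (interaction 0.78 ± 0.15). Ltbp3, which stores latent TGF-beta in the matrix, had -0.47 ± 0.09, and the receptor gene Tgfbr2 was positive (0.57 ± 0.12). Tgfb1 was a joint fall.

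Gkn2, a gastric mucosal protein, had the largest fitted negative value among called genes that reach a mean of 50 in a group (-4.80) and was high in 1 untreated and 5 ADU-S100 tumors, at 0.957 to 2656 (median 4.55) and 4.95 to 1564 (median 840.1) normalized counts over the groups, and low under the antibody, at 1.84 to 10.9 (median 4.85) without and 0 to 9.6 (median 3.65) with ADU-S100. An immunoglobulin and a T cell receptor segment, Ighv1-84 (-4.18) and Trav14d-3-dv8 (-2.15), were also among those 4. Segments of these families share sequence, and Ighv1-84 reached 2.88 to 390.1 (median 11.9) in anti-LTbR tumors.

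Of 17 core clock genes 5 had a negative interaction (29.4%, against 11% of all genes) and none a positive one (median -0.13), and of 9 clock output genes none was called by limma (1 at an unadjusted p under 0.05, 0 with edgeR and 0 with DESeq2). Arntl, the activator BMAL1, had 785 to 988 (median 875) normalized counts without treatment, 645 to 1019.8 (median 768) with ADU-S100, 402 to 554 (median 490.4) with anti-LTbR and 283 to 404 (median 328) with both agents. The antibody alone lowered it (-0.84 on the log2 scale) and the combination lowered it more (-1.39), with 7 of 8 combination tumors below the rest, an interaction of -0.39 ± 0.12 (adjusted p = 0.023). Clock, its partner, passed the test against untreated in the combination (lower, adjusted p = 0.000315) and under neither single agent (adjusted p = 0.344 for ADU-S100 and 0.737 for the antibody), averaging 1253 ± 155, 1369.8 ± 53.5, 1213 ± 103 and 978 ± 135 (interaction -0.46 ± 0.11). Bhlhe41, a repressor that binds the same promoters, was a ceiling, with 1474 to 1933 (median 1647) in untreated, 1786 to 2364 (median 2092) in ADU-S100-treated, 2045 to 2889.9 (median 2287) in antibody-treated and 2044 to 2787 (median 2312) in doubly treated tumors (interaction -0.32 ± 0.09). The call of Bhlhe41 was lost with libraries centred within length bins (-0.16, adjusted p = 0.292). Of the 17 genes, 3 were called with edgeR, 3 with DESeq2 and 3 within length bins, and within the 2 kinds of library 0 of them in the 21 (median -0.18) and 1 in the 11 (median 0.01). Csnk1d, a kinase of PER proteins, had an interaction of -0.12 ± 0.04, and Nr1d1, the repressor REV-ERB alpha, of -0.37. The other clock genes, Per1 to Per3, Cry1 and Cry2 among them, and the output genes Dbp, Tef and Hlf had no called interaction.

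CLOCK and BMAL1 bind the E-box CACGTG, which reads the same on both strands. It lay within the 300 bases of promoter (250 before to 50 after the start) of 4 of the 13 core clock genes with a RefSeq promoter, in Bhlhe41, Ciart, Cry1 and Per1, of which Bhlhe41 had a called interaction. Its promoter is shown for the position of that motif, in capitals (GRCm38.p6, chr6:145865371-145865670, minus strand):
Bhlhe41: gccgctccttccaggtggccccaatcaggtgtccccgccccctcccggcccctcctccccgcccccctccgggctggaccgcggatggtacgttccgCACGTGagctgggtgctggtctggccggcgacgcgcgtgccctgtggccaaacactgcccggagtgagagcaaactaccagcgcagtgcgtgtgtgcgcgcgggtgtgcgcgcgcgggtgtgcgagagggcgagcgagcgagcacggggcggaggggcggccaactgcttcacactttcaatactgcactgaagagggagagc
The motif was held by 10.3% of 907 promoters of positive genes, 11.7% of 1449 promoters of negative genes and 11.2% of 12057 promoters of all genes tested. A D-box, the site of DBP and its relatives, searched on both strands as TTATGTAA, was in 1.21%, 0.552% and 0.68% of them, and as TTACGTAA in 0 promoters of positive genes, 1 of negative genes (0.069%) and 21 of all genes tested (0.174%).

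Of 10 heat shock genes 4 had a negative interaction (against 11% of all genes) and none a positive one (median -0.37). Hspa1a, an inducible chaperone, averaged 539 ± 166 in untreated tumors, 712 ± 207 under ADU-S100, 372 ± 68.6 under the antibody and 276 ± 48.5 under both (interaction -0.83 ± 0.26). Its near-identical copy Hspa1b, which may share reads, had -0.74 ± 0.26. Hsp90aa1 had 3668 to 4832 (median 4375) in the combination, below all 24 other tumors, and an interaction of -0.34 ± 0.11, and Bag3, a co-chaperone, -0.27 ± 0.08. Of the 10 genes, 2 were called with skin and muscle levels as terms and 2 within length bins. Of 25 glycolysis and hypoxia genes 7 were negative (28%, against 11% of all genes) and 2 positive (median -0.23). Within length bins 3 of the 25 were negative, in the 21 libraries of one kind 3, and in the other 11 none by limma. The joint falls included P4ha1, a hypoxia-induced enzyme of collagen maturation (-0.40 ± 0.08), and Pfkp, a phosphofructokinase (-0.25 ± 0.08), while Hk2, a hexokinase, was a ceiling (-0.34 ± 0.10). The positive genes were Adm and Slc16a3, a lactate transporter (0.41).

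Ceilings were led by Bard1, the partner of BRCA1 in DNA repair. It had 217 to 279.8 (median 253) normalized counts without treatment, 263 to 340.1 (median 287) with ADU-S100, 302 to 363 (median 346) with anti-LTbR and 205 to 322 (median 262) with both agents. The antibody alone raised it by 0.44 (adjusted p = 0.000283), the combination overlapped untreated, and the interaction was -0.58 ± 0.10 (adjusted p = 0.000521). Vps39, a subunit of a lysosomal tethering complex, and Arel1, a ubiquitin ligase, had smaller values of -0.26 ± 0.05 and -0.34 ± 0.07.

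Of 31 interferon-stimulated genes 5 were negative (16.1%, near the 11% of all genes) and none positive (median -0.26), and the list median relative to untreated was 0.07 under ADU-S100, 0.32 under the antibody and 0.09 under both. Xaf1, an interferon-induced gene of apoptosis control, had 1869 to 3257 (median 2318) normalized counts in untreated, 2361 to 3059.5 (median 2658) in ADU-S100-treated, 2768 to 3523 (median 3038) in antibody-treated and 1974 to 3433 (median 2385) in doubly treated tumors, an interaction of -0.46 ± 0.14 (adjusted p = 0.0213). The antibody alone raised it by 0.34 (adjusted p = 0.0159), the ranges of all groups overlapped, and the medians of the combination and of untreated tumors were close. Herc6 was a ceiling as well (-0.53 ± 0.17), Irf9 was a joint fall (-0.25 ± 0.08), and Ddx58, the RNA sensor RIG-I, had -0.34. The classical members Isg15, Mx1 and Rsad2 had no called interaction. With libraries centred within length bins 1 of the 31 genes was called. All 31 estimates were below 0, and within the 21 libraries of one kind 6 were called and the median was -0.45, while within the other 11 none was called by limma and it was -0.07.

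Of 30 genes of the interferon gamma response and MHC class II, 4 were negative (13.3%, near the 11% of all genes) and none positive (median -0.12). Compared with untreated tumors, 25 were higher under the antibody alone (against 8.62% of all genes) and 24 in the combination (against 21.5%). Gbp7, a guanylate-binding protein of cell-autonomous defence, had 2275 to 3721 (median 2787) in untreated tumors, 2854 to 4092 (median 3707) under ADU-S100, 3620 to 4359 (median 4249) under the antibody and 2419 to 4400.1 (median 3119) under both (interaction -0.70 ± 0.15, adjusted p = 0.00265). Irgm2, a related immunity GTPase, had -0.59 ± 0.15, and the near-identical Tgtp1 and Tgtp2, which may share reads, -0.71 ± 0.21 and -0.60 ± 0.16. Within the 21 libraries of one kind none of the 30 was called by limma and the median was -0.25, and within the other 11 libraries 1 was called and it was 0.20, so its sign turned. Class II genes such as H2-Aa, H2-Ab1 and Cd74 and the chemokines Cxcl9 and Cxcl10 had no called interaction. In the STING pathway list 1 of 13 was positive, Irf3 (0.25 ± 0.09), and 1 negative, Lrrc8c, a channel subunit that passes cyclic dinucleotides (-0.32 ± 0.10), a share of 15.4% called against 18.4% of all genes. The call of Irf3 was lost with the kind of library as a term (adjusted p = 0.0531), with skin and muscle levels as terms (0.0971) and within length bins (0.0667), and that of Lrrc8c within length bins (-0.12, adjusted p = 0.434).

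**Figure D5:**
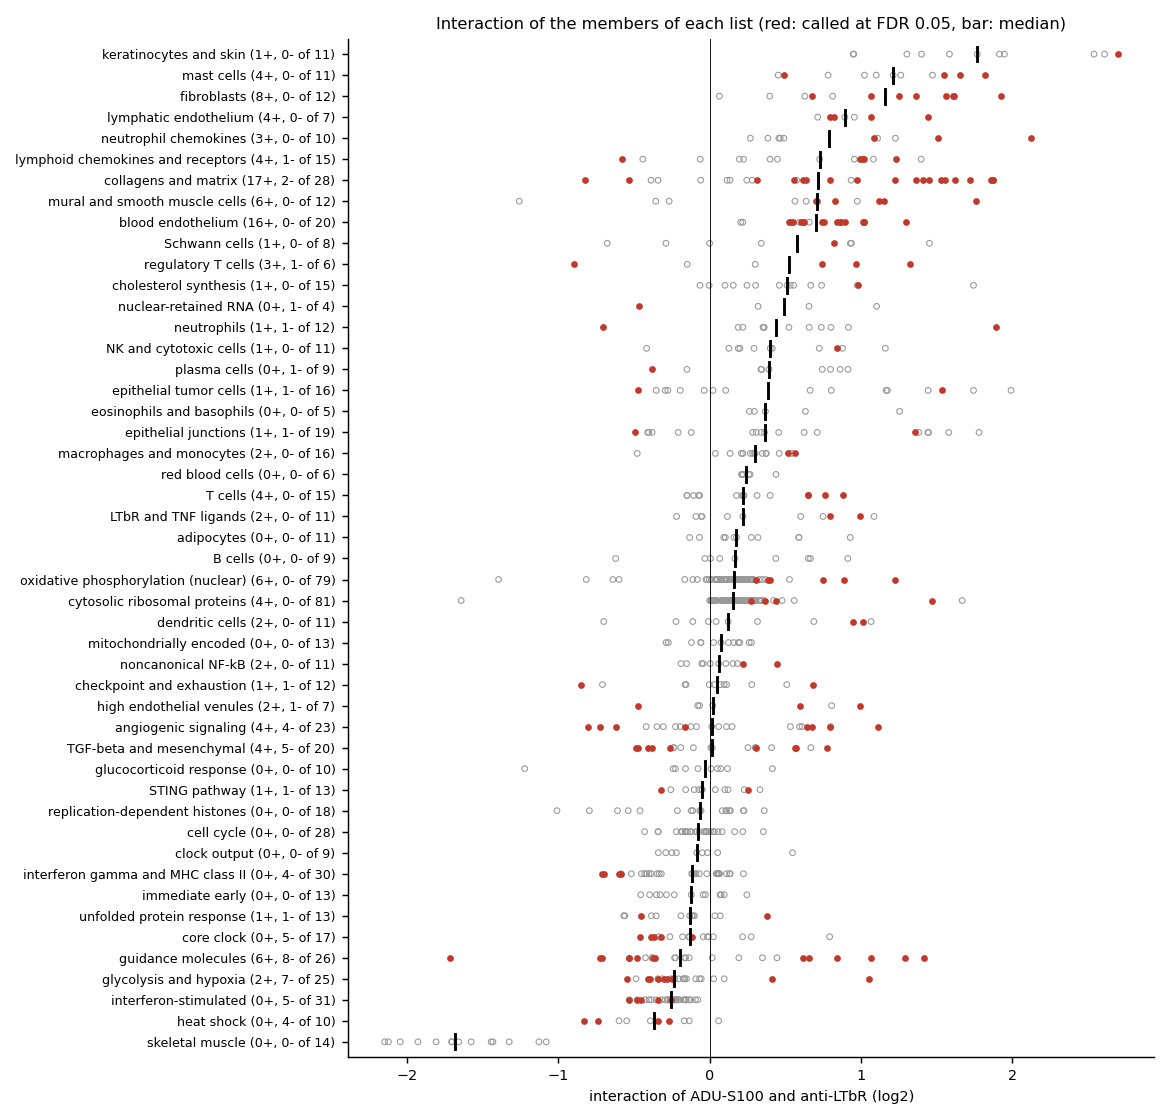
Interaction (log2) of every tested member of each list with at least 4 members tested, ordered by the list median (bar), with called genes filled in red and other genes open. Beside each name stand the members called positive and negative out of those tested, and the medians run from 1.77 for keratinocyte markers, with 1 of 11 called, to -1.68 for skeletal muscle genes, with 0 of 14 called.

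Several programs showed few or no interactions. None of 28 cell cycle genes, 13 mitochondrially encoded genes, 13 immediate early genes, 10 glucocorticoid response genes, 11 adipocyte markers, 6 red blood cell genes or 18 tested histone genes was called by limma. At an unadjusted p under 0.05 there were 2 cell cycle, 0 mitochondrially encoded, 2 immediate early, 1 glucocorticoid, 0 adipocyte, 0 red blood cell and 1 histone genes, and edgeR and DESeq2 each called 1 histone gene and none of the others. With skin and muscle levels as terms limma called 3 mitochondrially encoded genes (positive) and 1 immediate early gene (negative), and 1 immediate early gene within length bins. In the 21 libraries of one kind it called 1 immediate early and 1 histone gene. The list medians lay between -0.12 for immediate early genes and 0.24 for red blood cell genes. Of 81 cytosolic ribosomal protein genes 4 were positive with limma (4.94%, against 7.33% of all genes) and 11 each were called with edgeR and DESeq2. Their median was 0.16, and 80 of the 81 estimates were above 0. Compared with untreated tumors, 65 were lower in the combination (against 26.3% of all genes) and 1 was higher (against 21.5%). Rplp0 (0.27 ± 0.07) and Rpl10 (0.37 ± 0.13) were rescues, and Rps4l, a paralog that may share reads, was a joint rise (1.47 ± 0.23). Nuclear genes of oxidative phosphorylation had 6 positive of 79 (7.59%, against 7.33% of all genes). With skin and muscle levels as terms 35 of them were positive, against 1410 of all 17649 genes. Cholesterol synthesis had 1 positive of 15 (6.67%, median 0.51, or 0.14 with skin and muscle levels as terms, and 0.80 and -0.27 within the 2 kinds of library), the unfolded protein response 1 positive and 1 negative of 13, and epithelial tumor cell markers 1 and 1 of 16 (Cdh1 at 1.54, or 0.76 with skin and muscle levels as terms, and Lad1 at -0.47). Of 19 epithelial junction genes Cdh3 was positive (1.36) and Tjp1 negative (-0.49), of 8 Schwann cell genes 1 was positive (12.5%), and of 4 nuclear-retained RNAs 1, Kcnq1ot1, was negative (-0.46). The other 3 RNAs of that list had estimates above 0, its median was 0.49, and with libraries centred within length bins 3 were positive and none negative, and Kcnq1ot1 lost its call (-0.22, adjusted p = 0.304). Of 5 eosinophil and basophil genes none was called by limma, and DESeq2 called 1.

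Over the 48 lists with at least 4 tested members, the list median had opposite signs within the 2 kinds of library in 19. These were the core clock, clock output, glucocorticoid response, noncanonical NF-kB, interferon gamma and MHC class II, checkpoint, angiogenic signaling, oxidative phosphorylation, mitochondrially encoded, immediate early, cholesterol synthesis, TGF-beta, epithelial junction, histone, B cell, T cell, epithelial tumor cell, keratinocyte and adipocyte lists. The collagen and matrix, fibroblast, mural, blood endothelial and lymphatic endothelial lists had positive medians in both kinds. The number of called members moved by over 1.5 times in 14 lists with skin and muscle levels as terms, among them the skin and muscle lists that make these terms, in 10 with libraries centred within length bins and in 3 with the kind of library as a term. With skin and muscle levels as terms the list median changed sign in 5 lists, glucocorticoid response, TGF-beta, histone, skin and muscle. Within length bins it did so in 3, the STING pathway, guidance molecules and high endothelial venules.

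The shapes also differed in features that the fit did not use. The median length of the longest annotated transcript (GENCODE, GRCm38) was 4886.5 bases in joint falls and 5940.5 in ceilings, against 3051 in joint rises, 1720 in rescues and 3015 over all genes tested, of which 98.5% had a length. The median GC content was 46.7% in joint falls, 48.1% in ceilings, 51.9% in joint rises and 50.6% in rescues, against 49.7% over all genes. Expression level, which does enter the fit, differed as well. Its median was 1121.9 normalized counts in joint falls and 896 in ceilings, against 154.4 in joint rises, 236 in rescues and 267.7 over all genes. Across genes, log2 length and the interaction had a Pearson r of -0.136, and genes are not independent replicates. With every library centred within bins of length, 1329 positive and 1199 negative genes were called, so the negative count moved by more than 1.5 times and the positive one by less. Loxl2, Ptx3, Ptpn13, Sema3d and Gbp7 then had interactions of 1.97, 2.89, -0.51, -1.56 and -0.54. Of the 133 called genes that are named, 21 lost their call in that fit. They were Pafah1b2 (from -0.32 to -0.12), Pfkp (from -0.25 to -0.01), Lrrc8c, Bhlhe41, Kcnq1ot1, Trbc2, Cd2, Cxcl2, Tnf, Mcpt4, Irf3, Irf9, Herc6, Csnk1d, Hsp90aa1, Hspa1b, Rpl10, Krt14, Icam1, Timp3 and Ddx58.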

How the data were processed

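Bulk RNA was sequenced from 32 individual tumors, 8 in each of 4 groups. The authors deposited normalized counts per gene for these tumors (a signal, reads divided by a size factor per library) and a second table of 52 libraries in the same unit, and 20 of these libraries, all of another experiment, were not used (the labels of 15 of them name conflicting treatments). The submitters' processing notes name cutadapt 1.9, HISAT2, STAR, StringTie, Partek, DESeq2, edgeR and the build mm39. The deposited name of the counts used for the main test includes Partek. Which of the other tools made each table is not given in the sources used here. Whole reads were recovered from the second table: 100% of low values came out whole within a tolerance of 0.05. On these reads the edgeR 4.0.16 quasi-likelihood test (TMM) called 1433 positive and 1471 negative genes and DESeq2 1.42.0 called 1693 and 1588, as alternatives to the main test.

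The main test was limma 3.58.1 (R 4.3.3, trend) on log2(normalized count + 1), with 1 fit of 4 group means for 17649 of 27525 genes that passed filterByExpr (minimum 10), and Benjamini-Hochberg adjustment over all of them at 0.05. Fold changes on this scale understate changes of low genes. Errors are SE of the interaction, or SD over 8 tumors where a mean is given as mean ± SD. On simulated data with 200 genes changed by 1 among 16287, 173 were recovered with 8 false calls. There all groups shared the same means, the change was put on the combination alone, and changed genes lay above the lowest quartile of level. Counts were drawn independently, without kinds of library or shared skin and muscle variation, so these rates do not carry over to the tumors. Ranges are lowest to highest of 8 tumors. The fit treats the tumors as independent, and whether each came from its own mouse is not given in the sources used here, so p-values measure the spread between tumors.

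Named genes are those with the 10 smallest p-values in each direction, the 3 smallest in each shape, the 4 largest values in each direction, and up to 4 members of each list with the smallest p-values. A few genes that this rule names are not reported here. Called members outside this rule, and the genes named as not called, were named after their values were seen. The gene lists and this rule were chosen with earlier results of these data known. Gene positions are mm39, and lengths and promoters are from GRCm38 annotation (GENCODE M21 and RefSeq). Alternatives changed the pseudocount, filter, scaling, tool and libraries used.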

Additional observations from a re-analysis of the deposited data

Results flagged for a closer look

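In 52 of 544 combinations of a named gene and a group (136 genes in 4 groups), 1 tumor stood apart from the other 7 by Dixon's criterion, and chance alone gives about 1 in 20, or 27.2. All values are normalized counts, with the range of the other 7 tumors of the group. No cause was tested. ADU-S100 1 stood apart in Krt6b at 3609.8 (others 41.4 to 187), Stfa1 at 140.4 (others 0 to 7.03), Gsdmc at 214 (others 0 to 36.8), Kit at 169.9 (others 79.5 to 121), Fcer1a at 27.6 (others 3.93 to 11.8), Mcpt4 at 429 (others 29 to 129.6), Cdh1 at 665 (others 129 to 263) and Krt14 at 10037 (others 678 to 2608). In combination 5, the values that stood apart were those of Ccdc80 at 4099 (others 1584 to 2545), Bace2 at 159 (others 100.5 to 126), Loxl2 at 5624 (others 1801 to 3489), Mrc1 at 2332 (others 1849 to 2077) and Pdpn at 1643 (others 783 to 1182). Untreated 3 stood apart in Sting1 at 1344 (others 927 to 1095), Pecam1 at 817 (others 554 to 678), Lyve1 at 265 (others 65.1 to 158), S1pr1 at 284 (others 139 to 202), Mrc1 at 3477 (others 1206 to 1934), Slc16a3 at 1465 (others 885 to 1084) and Ccr7 at 136 (others 61.1 to 90.2). In combination 4, the values that stood apart were those of Ighv1-84 at 39.1 (others 1.95 to 7.75), Cd4 at 153 (others 214 to 263) and Il10 at 25.8 (others 15 to 20.1). Anti-LTbR 3 stood apart in Gsdmc at 66.8 (others 0.965 to 6.53), Vps39 at 1112 (others 969.9 to 1033), Cdh1 at 529 (others 133 to 224) and Krt14 at 5988 (others 743 to 2067). Untreated 4 stood apart in Glrx5 at 435 (others 285 to 350.1). Untreated 2 stood apart in Dcn at 7445 (others 2844 to 4869.5) and Tgtp1 at 16943 (others 7129 to 11479.8). In untreated 6, the values that stood apart were those of Krtap8-1 at 867 (others 0 to 139) and Ighv1-84 at 10.004 (others 0 to 3.06). Anti-LTbR 1 stood apart in Cd4 at 212 (others 106 to 155) and Kit at 152 (others 103 to 123). In ADU-S100 4, the values that stood apart were those of Pecam1 at 372 (others 538 to 654) and Ccr7 at 92.5 (others 55.5 to 72.5). The remaining ones were Krtap8-1 in anti-LTbR 5 at 7.62 (others 0 to 1.11), Krtap8-1 in combination 8 at 250.5 (others 0 to 11), Mapk1ip1l in anti-LTbR 8 at 2711 (others 2377 to 2525) and Lrrk2 in ADU-S100 2 at 1657 (others 1164 to 1335). Further single tumors were Adnp2 in ADU-S100 5 at 487 (others 523 to 544), Gkn2 in untreated 8 at 2656 (others 0.957 to 7.78), Ighv1-84 in anti-LTbR 7 at 390.1 (others 2.88 to 91.8) and Rgs5 in combination 6 at 1733 (others 786 to 1127). Others were Lyve1 in anti-LTbR 6 at 211 (others 95.8 to 135), Angpt2 in untreated 1 at 174 (others 93.5 to 127), Ephb2 in untreated 7 at 253 (others 126 to 155) and Cxcl12 in ADU-S100 6 at 2181 (others 924 to 1289). Mrc1 stood apart in ADU-S100 7 at 1939.9 (others 1305 to 1589.7) and Kcnq1ot1 in combination 8 at 131 (others 91.2 to 109). The last were Cxcl2 in combination 1 at 142 (others 15 to 54) and Xaf1 in combination 2 at 3433 (others 1974 to 2634).

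The effect of ADU-S100 differed between tumors without and with the antibody in 3240 genes, by the interaction test that the report describes (limma, false discovery rate 0.05). ADU-S100 1 was the only library of its group with high skin genes such as Krt6b, Gsdmc and Krt14, and its mast cell genes Fcer1a and Mcpt4 were high as well. Without it, 1377 genes were positive and 1954 negative. Combination 5 was high in Loxl2, Ccdc80, Bace2 and Pdpn, and without it 959 were positive and 1556 negative.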

How the results depend on the processing

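The direction of the interaction kept for the named genes: of 133 called genes, 2163 re-fits kept the call, and 321 in 104 genes lost it, while leaving out 1 tumor kept 3929 and lost 327 in 27 genes. Of list medians 449 moved by less than the spread and 41 by more, and of member counts 822 and 158. The cause of the changes below was not tested.

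Genes called for ADU-S100 against untreated numbered 315 with DESeq2, 9 with RLE, 10 with TMM and 14 with library totals in edgeR, 8 with no filter, 4 with muscle and skin terms, 3 with the replicate block, and 1 to 349 when 1 tumor was left out. Centring within length bins left 1199 negative genes, 1057 joint falls and 142 ceilings, and library totals 1296 negative genes.

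With only libraries above 14000000 reads, which are fewer, 1568 interactions were called (738 positive, 830 negative), 656 joint rises, 82 rescues, 662 joint falls and 168 ceilings, 25 genes for ADU-S100 alone and 1110 for the combination against anti-LTbR. The 7 libraries left out were all among the 11 with few values below 1. They held every anti-LTbR and combination library of that kind, so this filter overlaps the split by kind of library. In the 11 libraries with few values below 1, 748 were called (169 positive, 579 negative), 163 joint rises, 6 rescues, 563 joint falls and 16 ceilings, 0 genes for ADU-S100 alone, 1552 with the antibody, 1 for the antibody alone and 3580 with ADU-S100. In the other 21, 1528 were called (796 positive, 732 negative), 742 joint rises, 53 rescues, 647 joint falls and 84 ceilings, 4 genes for ADU-S100 alone, 1671 with the antibody and 1102 for the antibody alone, and the estimate of Sting1 turned to -0.036. Asking for a size of at least 1 left 540 interactions (478 positive, 62 negative), 380 genes for the combination against anti-LTbR, 244 for the antibody alone and 1151 for the combination against ADU-S100.

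Leaving out 1 tumor gave 2515 to 3718 interactions, 959 to 1507 positive and 1556 to 2211 negative (lowest without combination 5, highest without combination 2). It gave 3050 to 4586 genes for the combination against anti-LTbR, 2001 to 3772 for the antibody alone, 7252 to 8108 for the combination against ADU-S100, 839 to 1341 joint rises, 97 to 247 rescues, 1288 to 1898 joint falls and 189 to 438 ceilings.

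The groups share replicate numbers 1 to 8, and the correlation of same-numbered tumors' deviations was not above 0.1 in every pair (mean r 0.0306, 23 of 48 pairs above 0.1, 8 of 32 libraries closest to their own number). It was above 0.1 in all 6 pairs of number 1 and 5 of 6 of number 2, and in 1 to 3 of 6 of each other number, so the numbers were not taken to pair the tumors. With the replicate block 1328 positive and 1972 negative genes were called, 3060 of them also without it.

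With 8 tumors a group and at least 12762453 reads a library the fit gave a median SE of 0.145. The smallest called interaction was 2.78 times its SE, so at the median SE an estimate under 0.403 on the log2 scale was not called. This is a cut on the estimate and not on the true size, and genes with a smaller SE were called below it.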
